A study of Danio rerio with 9 samples.

Results

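The zebrafish ear on day 4 after a damaging sound was compared with the ear on day 2, a comparison written here as Day 4:Day 2. It used the 3 arrays of the Day 4 group and the 3 arrays of the Day 2 group, 6 of the 9 arrays of the study. The other 3 arrays were of control ears. All fish were adult Danio rerio from a commercial breeder. Day 2 and Day 4 fish were sampled 2 or 4 days after an intense low-frequency tone, and Control fish were not exposed to it. Both whole ears (saccule, lagena, utricle and semicircular canals) of 18 to 20 fish were dissected and combined into 1 RNA pool for each group, and that pool was hybridized to 3 single-colour 60-mer oligonucleotide arrays. The 3 arrays of a group were therefore technical replicates, and every p-value below measures only the spread between hybridizations of the pools, not the spread between fish. In such bulk RNA, fewer cells of a type and less RNA per cell cannot be told apart.

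The hair cells of the fish ear turn fluid motion and sound into nerve signals, and unlike those of mammals they are replaced after they are lost. Intense sound kills hair cells of the saccule, the main hearing organ of these fish, and macrophages enter the tissue and clear the debris while supporting cells divide or change into new hair cells. Immediate early genes, cytokine signaling and matrix proteases are typical of the early response to tissue injury, and growth factors and matrix repair of the later one.

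All 21495 zebrafish probes of the array were read, and the 9850 that were well above local background on every array of at least 1 of the 2 days were tested. Of these, 8031 were well above background on all 6 arrays. Array values are log2 intensities relative to the 75th percentile of the same array, so that 0 is that percentile and a difference of 1 is a 2-fold difference. A probe was called significantly regulated when the Benjamini-Hochberg adjusted p of limma over the 9850 probes was at most 0.05 and the change was at least 1.4-fold. Between 39.5% and 56.9% of the spots of an array were well above background, lowest on Day 4 replicate 2. Replicate 1 of all 3 groups shared slide 1, while Day 4 replicates 2 and 3 lay on slide 3 with replicate 3 of Day 2 and Control. Slide 2 held only replicate 2 of Control and of Day 2. With the slide as a term, leaving out either of these arrays therefore gave the same fit, and losses without them below are 1 result. Slide 3 was scanned on another day, its local background was 129 to 153.5 intensity units against 63.5 to 74.0 on the other slides, and the part of this in the results was not tested beyond the within-slide values given below. Replicate arrays correlated at 0.997 to 0.999 on Day 2 and at 0.991 to 0.996 on Day 4.

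The dissected tissue was checked against marker genes. Of 5 hair cell marker genes on the array 3 were tested. The signal of all 6 hair cell marker probes, tested or not, was summed in multiples of the 75th percentile of the array. It was 139 to 142 on Day 2 and 144 to 179 on Day 4. The probes of pvalb8 (log2 5.60 to 6.47 on Day 2) made up most of it, beside 1.07 to 1.24 for atoh1a. Marker sums below likewise take every marker probe on the array, also those not tested. Markers of the otolith and its supporting cells summed to 56.7 to 58.6 on Day 2 and 42.8 to 53.2 on Day 4. No probe of either set was significantly regulated. The otolith matrix gene oc90 and the hair cell tip-link gene cdh23 were well above background on no array. Markers of epidermis, myelin, red blood cells and muscle were also detected.

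Day 4:Day 2 had 767 significantly regulated probes, 7.79% of those tested. They were 337 probes higher on Day 4 (3.42%) and 430 lower (4.37%). The median log2 fold change over all 9850 probes was 0.01. For 752 of the 767 probes the 3 Day 4 arrays and the 3 Day 2 arrays did not overlap, which was also true of 46.1% of all tested probes. Only 104 of the 767 changed by at least 2-fold, 30 upwards and 74 downwards. Of the 767 probes 536 were well above background on all 6 arrays, 301 higher and 235 lower. This split is partly fixed by the change and the filter, because a probe dim on any of the 6 arrays cannot be among them. Of the 430 lower probes 195, and of the 337 higher probes 29, were not well above background on every Day 4 array. On the Day 2 arrays this held for 7 higher and 0 lower probes. Dim probes among the 767 thus entered mainly through the Day 2 arrays, and the count of 430 against 337 also depends on the filter. A total of 454 of the 767 probes carried a current gene symbol, naming 164 genes that rose and 227 that fell.

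These counts depended on how the intensities were treated. With normexp background correction of the raw spot means, limma called 0 probes (lowest adjusted p = 0.0704), although 757 had an unadjusted p of at most 0.05, and 650 of the 767 probes kept their sign. With arrays scaled at the 50th percentile and all 21495 probes tested, limma called 14 probes, 8 higher and 6 lower, of which 13 were also among the 767.

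**Figure D1:**
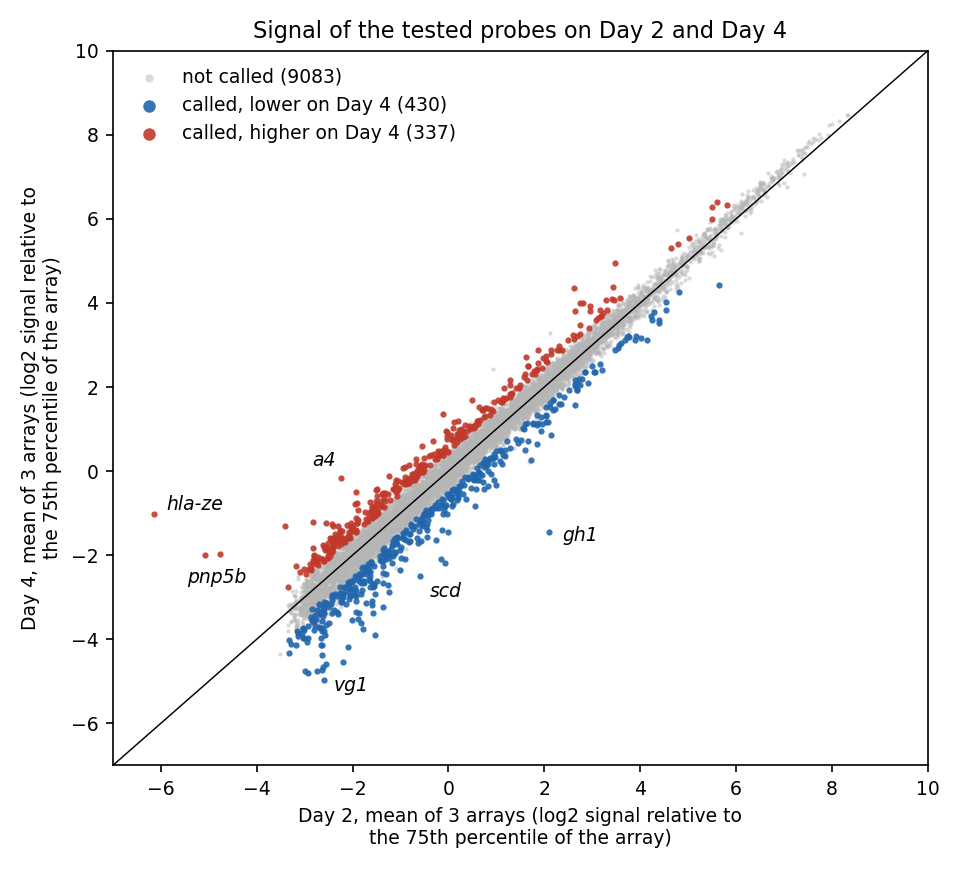
Each point is 1 of the 9850 tested probes, placed by its mean over the 3 Day 2 arrays (horizontal) and over the 3 Day 4 arrays (vertical), both log2 signals relative to the 75th percentile of the array. The 337 probes significantly higher on Day 4 are red and the 430 lower are blue, the line marks equal signal, and hla-ze and gh1 lie farthest from it.

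The largest rise was that of hla-ze, a gene of MHC class I, the family that presents peptides from inside the cell to T cells. The probe read -5.85, -6.91 and -5.66 on the Day 2 arrays, where it was not well above background on any, and -0.56, -1.22 and -1.29 on the Day 4 arrays. Control arrays read 0.00, -0.06 and -0.10. The probe was thus not well above background on the 3 Day 2 arrays and well above it on the 6 others, and the days did not overlap. Set against the lowest signal that counted as well above background, the Day 4 level of hla-ze was at least 7.24-fold higher. This bound was not itself tested, and the adjusted p of limma (0.000395) is that of the array values. A second hla-ze probe likewise was not well above background on Day 2 (-5.55, -6.76 and -5.49) and was well above it on 2 of 3 Day 4 arrays (-1.75, -2.91 and -2.20), so it was not tested. The remaining hla-ze probe read near the background in every group and did not pass the test (log2 fold change 0.20, SE 0.13, adjusted p = 0.27).

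The gene named a4 on the array, an MHC class II alpha chain that presents outside antigens on immune cells, rose in the same direction. Day 2 arrays read -2.21, -2.18 and -2.31, and Day 4 arrays read -0.15, -0.20 and -0.16. No array of one day came near those of the other, and the 4.24-fold rise (log2 fold change 2.08, SE 0.05) had an adjusted p of 4.51e-05. The class II alpha chain gene a2 went the other way, from -1.64, -1.54 and -1.52 on Day 2 to -2.52, -3.05 and -2.71 on Day 4, where only 1 of 3 arrays was well above background (log2 fold change -1.14, SE 0.13, adjusted p = 0.00268). The class II beta chain gene mhc2dgb also fell, by 0.70 on the log2 scale (SE 0.06, adjusted p = 0.0009). Class II genes therefore did not all move together. Of 8 tested probes of that list 1 rose and 2 fell, beside 3.42% and 4.37% of all tested probes, with a median of -0.46. Fitted values were above 0 for 1 of the 8 and below 0 for 7, beside 51.7% above 0 among all tested probes.

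Class I genes were more evenly divided, with fitted values above 0 for 11 tested probes and below 0 for 10. Of 21 tested probes for class I genes and peptide loading, 3 rose and 2 fell, beside 3.42% and 4.37% of all tested probes. Their median log2 fold change was 0.00. Besides hla-ze, both probes of mhc1uba, a classical class I gene on chromosome 19, rose. The higher-ranked probe read 1.76, 1.70 and 1.75 on Day 2 and 2.27, 2.31 and 2.34 on Day 4 (log2 fold change 0.55, SE 0.04, adjusted p = 0.00071), and the other rose by 0.54 (SE 0.10), which came to 0.43 without Day 2 replicate 1 and 0.41 without Day 4 replicate 1, under the fold threshold. In contrast mhc1uxa2 fell by 0.69 (SE 0.09, adjusted p = 0.0035), as did calr3a, a calreticulin of the peptide-loading machinery (fell by 0.69, SE 0.04, adjusted p = 0.00041). Each day was a different pool of fish.

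The largest fall was that of gh1, growth hormone, the pituitary hormone that drives body growth (probe at chromosome 2, 22854610 to 22857040, in the danRer2 assembly used by the files). It read 2.17, 2.1 and 2.06 on the Day 2 arrays and -1.31, -1.62 and -1.45 on the Day 4 arrays. Control arrays read -4.06, -4.03 and -3.73, with 1 of 3 well above background. All Day 2 arrays were far above all Day 4 arrays, which were themselves above all Control arrays. The fall from Day 2 to Day 4 was 12-fold (log2 fold change -3.59, SE 0.12, adjusted p = 0.000156). It was nearly the same within slide 1 (-3.48) and within slide 3 (-3.59), and a second gh1 probe was well above background on no array.

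Other pituitary hormones were measured beside it. The proopiomelanocortin gene pomca, precursor of ACTH, rose slightly from Day 2 (-1.95, -1.89 and -1.93) to Day 4 (-1.43, -1.52 and -1.38), while no Control array was well above background. The days did not overlap (log2 fold change 0.51, SE 0.07, adjusted p = 0.0043), but the change came under 1.4-fold without Control replicate 3 (0.48), Day 2 replicate 1 (0.47) or Day 4 replicate 3 (0.46). The 2 tested probes of lhb, the luteinizing hormone beta chain, did not pass the test (log2 fold changes 0.00 and 0.09). Prolactin (prl) and thyrotropin (tshba) were well above background on no array, and cga, the shared glycoprotein hormone chain, was so on 1 of 3 arrays of each day. Over 3 tested pituitary marker genes with 4 probes, 1 probe rose and 1 fell, beside 3.42% and 4.37% of all tested probes. The signal of all 8 pituitary marker probes on the array summed to 0.449 to 0.530 in Control. It was 7.31 to 8.17 on Day 2 and 3.83 to 4.2 on Day 4. The gh1 probe was the largest part of it on Day 2 (log2 2.06 to 2.17) but not on Day 4 (-1.62 to -1.31). The 2 lhb probes read 0.39 to 0.85 on Day 2 and 0.42 to 0.80 on Day 4. The pituitary lies at the base of the brain, between the ears, and the part of pituitary tissue in these values was not tested.

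A list of growth hormone and insulin-like growth factor pathway genes did not include gh1 itself, which was counted among the pituitary hormones. Of its 13 tested probes 1 rose and 1 fell. Among all tested probes these shares were 3.42% and 4.37%, and the list median was -0.02. The receptor gene igf1rb rose by 0.53 (SE 0.05, adjusted p = 0.0015), and by 0.48 without Day 2 replicate 3, under the fold threshold. The transcription factor stat5a, which carries the growth hormone signal, read 0.36, 0.29 and 0.20 on Day 2 and -0.44, -0.11 and -0.15 on Day 4. It fell by 0.56 on the log2 scale (SE 0.10, adjusted p = 0.012), which was -0.80 within slide 1 and -0.32 within slide 3, and the call was lost without replicate 1 of Day 2 (-0.46) or of Day 4 (-0.42).

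**Figure D2:**
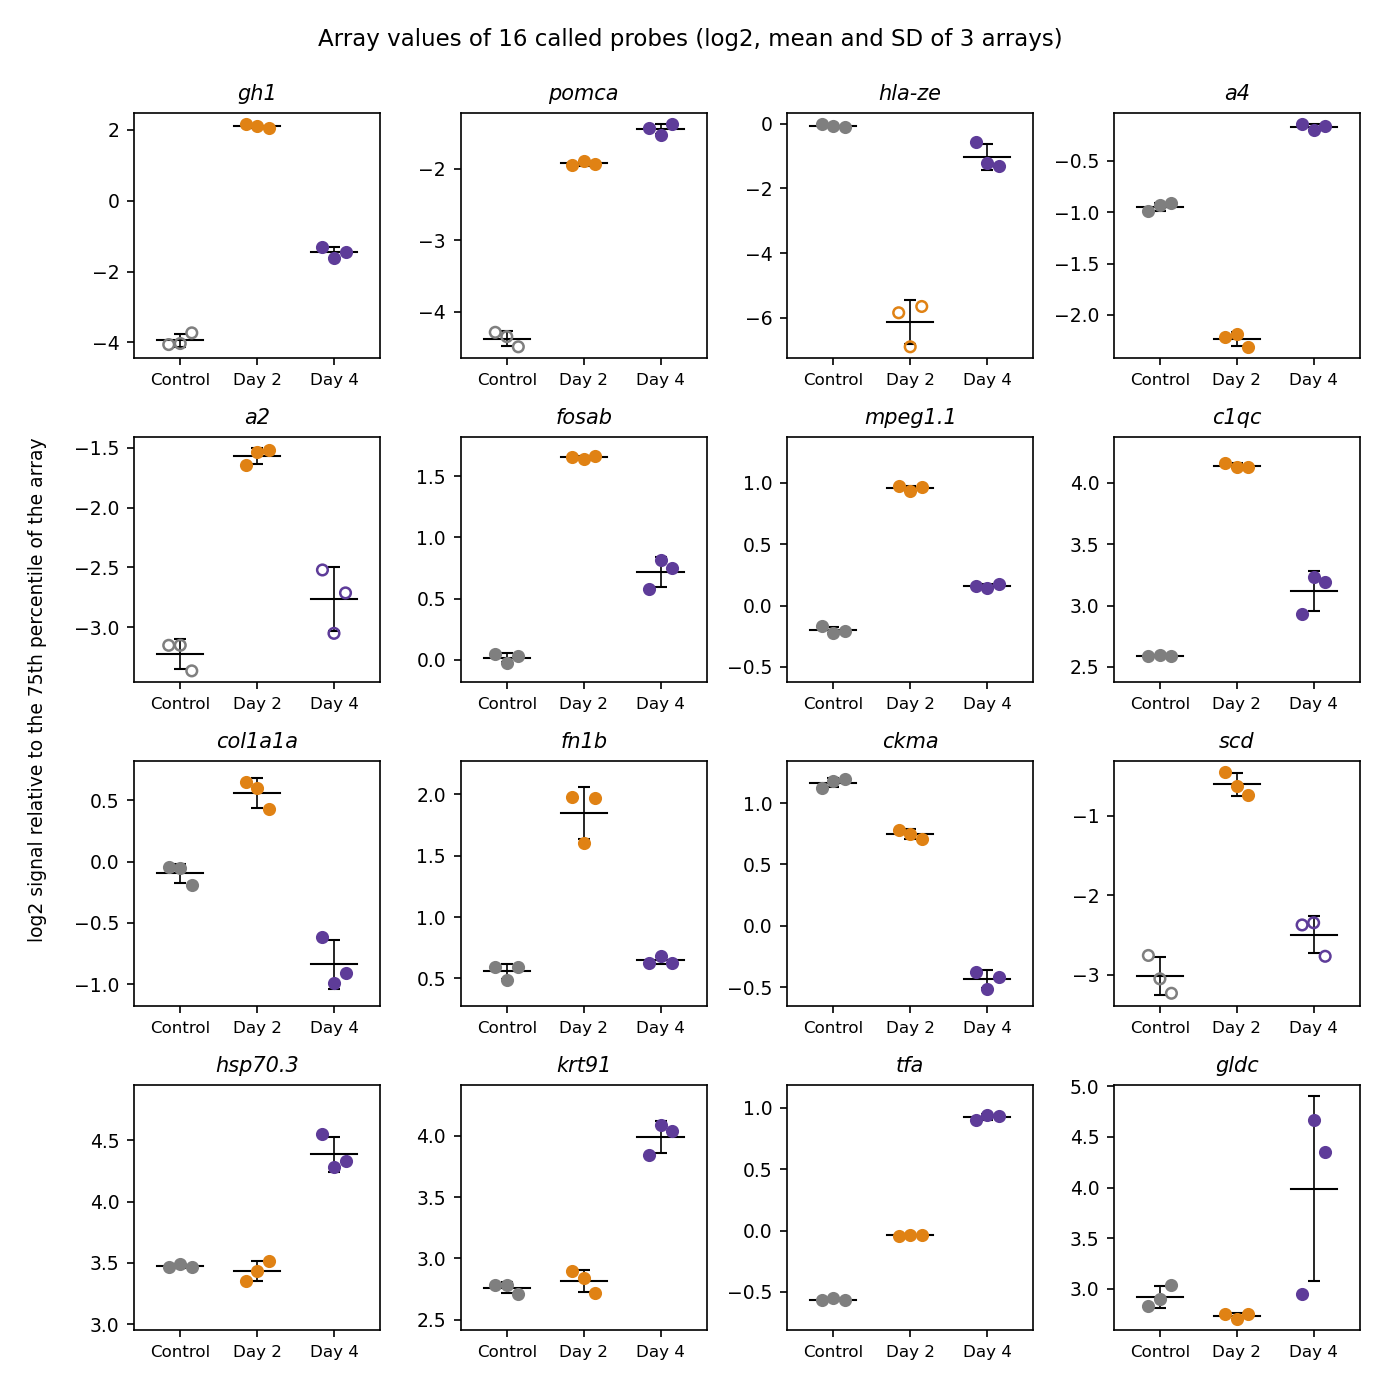
Each panel shows 1 probe, with a point for every array of Control, Day 2 and Day 4 and bars at the group mean and 1 SD (n = 3), in log2 units with the 75th percentile of the array at 0. Hollow points mark a group in which fewer than 3 arrays were well above background, as for hla-ze on Day 2 and gh1 in Control, and the Day 2 and Day 4 points do not overlap in any panel.

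Genes of the early injury response changed in both directions. The list of AP-1 and other immediate early genes, which switch on within minutes of a stimulus, held 43 tested probes. Of these 6 fell and 4 rose, beside 4.37% and 3.42% of all tested probes, with a median of -0.14. Leaving out 1 array in turn left 5 to 11 falls, the 11 without Day 4 replicate 1, and 3 to 4 rises. The Fos gene fosab (chromosome 20, 56830779 to 56830838) read 1.65, 1.64 and 1.66 on Day 2 and 0.58, 0.82 and 0.75 on Day 4. It fell 1.95-fold (log2 fold change -0.96, SE 0.06, adjusted p = 0.00053). Its partner gene junba, a JunB gene, read 4.47, 4.34 and 4.39 on Day 2 and 3.49, 3.49 and 3.59 on Day 4 with the probe at chromosome 17, 41997020 to 41997079, a fall of 0.90 (SE 0.05, adjusted p = 0.00041). Its other tested probes fell by 1.45 and 1.60 but were well above background on only 1 of 3 Day 4 arrays, and the larger fall missed the threshold without Control replicate 2 or any 1 Day 2 array (adjusted p = 0.0507 to 0.0934). A second JunB gene, junbb, did not reach the fold threshold (log2 fold change -0.39, SE 0.09, adjusted p = 0.019). The zinc finger gene egr2a fell by 0.65 (SE 0.12) and cebpb, an activator of acute-phase genes, by 0.57 (SE 0.07).

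Other members of the same list rose. The orphan nuclear receptor genes nr4a1 and nr4a2b, themselves immediate early genes, rose by 0.68 (SE 0.05, adjusted p = 0.00064) and 0.66 (SE 0.05, adjusted p = 0.00065). For nr4a1 the Day 2 arrays read -0.75, -0.73 and -0.79 and the Day 4 arrays -0.05, -0.12 and -0.06. The small Maf genes maff and mafk, which bind DNA without an activation domain of their own, rose by 0.52 (SE 0.04) and 0.70 (SE 0.12), the latter not past the test without Day 2 replicate 3 (adjusted p = 0.0659). In these 4 genes the Control and Day 2 arrays lay close together and the Day 4 arrays above them.

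The JAK-STAT pathway relays cytokine and growth hormone signals. Of 16 tested probes on a list of STAT and SOCS signaling genes 3 fell, beside 4.37% of all tested probes, and none rose (median -0.06). They were those of socs3b, cebpb and stat5a, although cebpb is neither a STAT nor a SOCS gene. The same cebpb probe is counted among the immediate early genes above, and that of stat5a in the growth hormone list. The feedback inhibitor gene socs3b read 2.80, 2.64 and 2.59 on Day 2 and 1.94, 1.98 and 1.84 on Day 4, a fall of 0.74 (SE 0.07, adjusted p = 0.0012). The related inhibitors socs1a (-0.20, adjusted p = 0.072) and socs3a (-0.21, adjusted p = 0.023) did not reach the threshold, nor did stat1a (0.04, adjusted p = 0.62). Interferon response genes had 1 fall in 15 tested probes, beside 4.37% lower among all tested probes. It was that of the antiviral gene mxa (log2 fold change -1.09, SE 0.13, adjusted p = 0.0032), with 1 of 3 Day 4 arrays well above background.

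Several macrophage genes fell from Day 2 to Day 4. Of 28 tested probes on the list of macrophage and neutrophil markers 10 fell and 1 rose, beside 4.37% and 3.42% of all tested probes. The median was -0.36 against 0.01 over all tested probes, and -0.24 under normexp correction. The gene mfap4.1, whose promoter marks macrophages in zebrafish, read 2.16, 2.13 and 2.09 on Day 2, 0.73, 0.96 and 0.85 on Day 4, and 0.01, 0.05 and 0.02 in Control. It fell 2.43-fold (log2 fold change -1.28, SE 0.07, adjusted p = 0.00027), and its second probe fell by 1.1 (SE 0.07). The pore-forming gene mpeg1.1 of the same cells read 0.98, 0.93 and 0.96 on Day 2 and 0.16, 0.15 and 0.18 on Day 4, a fall of 0.81 (SE 0.04, adjusted p = 0.00022). The chemokine receptor gene cxcr3.2 fell with both probes (-0.74 and -0.71), and the granulin genes grna and grna.2 fell by 0.79 and 0.63. Day 4 stood between Day 2 and Control in each of these genes but grna.2, which was below Control on both days.

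The one rise on the macrophage and neutrophil list was that of lgals9l1, a galectin (log2 fold change 0.67, SE 0.04, adjusted p = 0.00053). Of 7 tested macrophage marker probes 5 fell and none rose, beside 4.37% lower among all tested probes. The 5 were both probes of mfap4.1 and those of mpeg1.1, c1qb and c1qc. Those of mfap4.1 and mpeg1.1 are already counted above, and the c1qb and c1qc probes are counted again among complement genes below. The signal of all 8 on the array summed to 25.0 to 25.1 in Control, 56.9 to 59.3 on Day 2 and 34 to 36.4 on Day 4. The same sum over the 9 neutrophil marker probes was 9.69 to 10.1, 15.3 to 16 and 12.8 to 14.7. Of the 6 tested 3 were lower, those of mmp9 and mmp13a. These 3 are also counted among the falls of the macrophage and neutrophil list and of the matrix proteases below. The lysozyme gene lyz, used as a marker of neutrophils, did not pass the test with either probe (0.04 and 0.07). Neither did the tested probe of the neutrophil marker npsn (-0.14, adjusted p = 0.42 by limma), while mpx and csf1ra were well above background on no array. The part of cell numbers in these changes was not tested.

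Some complement and matrix protease genes fell in the same comparison. The C1q chain genes c1qb and c1qc start the classical complement pathway and lie beside each other on chromosome 21. They were 2 of 6 tested probes of complement, cytokines and chemokines and the only ones past the test, beside 4.37% lower among all tested probes. For c1qc the Day 2 arrays read 4.17, 4.13 and 4.13 and the Day 4 arrays 2.93, 3.23 and 3.19, a 2.06-fold fall (log2 fold change -1.04, SE 0.08, adjusted p = 0.00071), and c1qb fell by 0.84 (SE 0.07). Of 10 tested probes for matrix proteases and their inhibitors 4 fell and none rose (median -0.25), beside 4.37% lower among all tested probes. They were 2 probes of the gelatinase gene mmp9 (-0.64, SE 0.04, and -0.59, SE 0.05), the membrane protease gene mmp14b (-0.62, SE 0.05) and the collagenase gene mmp13a (-1.05, SE 0.06, with 1 of 3 Day 4 arrays well above background). For mmp9 the Day 4 arrays (1.39, 1.23 and 1.28) lay with the Control arrays (1.32, 1.22 and 1.24) and below the Day 2 arrays (2.00, 1.93 and 1.89).

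Of 35 tested probes for collagens, fibronectins and matrix glycoproteins of the extracellular matrix 16 fell and none rose, beside 4.37% lower among all tested probes. The median was -0.48 (-0.45 under normexp correction), and leaving out 1 array in turn left 12 to 19 falls and no rise. The type I collagen gene col1a1a, the main fibre of bone and skin, read 0.65, 0.60 and 0.42 on Day 2 and -0.61, -0.99 and -0.91 on Day 4 with the probe at chromosome 3, 15351483 to 15351541. Control arrays read -0.05, -0.05 and -0.19, so Day 4 was the lowest group and Day 2 the highest. The fall was 2.52-fold (log2 fold change -1.33, SE 0.06, adjusted p = 0.00017), and a second probe fell by 0.97 (SE 0.07). The partner chains col1a1b and col1a2 fell by 1.14 (SE 0.05) and 0.81 (SE 0.07).

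The fibronectin gene fn1b, an early matrix protein of wounds, read 1.98, 1.60 and 1.97 on Day 2 and 0.63, 0.68 and 0.63 on Day 4. Its Control arrays read 0.59, 0.48 and 0.59. The Day 4 arrays were thus close to the Control arrays, and the fall was 2.44-fold (log2 fold change -1.28, SE 0.07, adjusted p = 0.00027). Another fn1b probe fell by 1.54 (SE 0.25) and was well above background on 1 of 3 Day 4 arrays. Its call was lost without Day 2 replicate 3 (adjusted p = 0.0588). Against Control this dim probe gave 1.08 on Day 2 and -0.47 on Day 4, below Control. Matrilin 1 (matn1), a cartilage protein, went below Control. It read 0.29, 0.26 and 0.25 in Control, 0.00, 0.01 and -0.05 on Day 2 and -1.44, -1.54 and -1.34 on Day 4 (log2 fold change -1.42, SE 0.06, adjusted p = 0.0002). The fibulin gene fbln1 fell by 1.18 (SE 0.10), the thrombospondin genes thbs4b and thbs3a by 0.87 and 0.74, the cartilage collagen gene col9a1b by 0.83, and periostin (postnb) by 0.73 and 0.54 with its 2 probes. Of 2 tested cartilage and bone marker probes 1, that of matn1, fell, beside 4.37% lower among all tested probes. All 3 on the array summed to 3.78 to 3.79 in Control, 2.44 to 2.52 on Day 2 and 1.59 to 1.85 on Day 4. The cartilage gene col10a1a was well above background on no array, and the part of cartilage in the pools was not tested.

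Of 39 tested probes for fast muscle and energy-buffer genes 15 fell and 2 rose, beside 4.37% lower and 3.42% higher among all tested probes. The median was -0.27, and -0.004 under normexp correction, and 14 of the 39 had a fitted value above 0. The creatine kinase gene ckma, which buffers the energy supply of muscle, read 0.78, 0.75 and 0.70 on Day 2 and -0.38, -0.52 and -0.42 on Day 4, and Control arrays read 1.12, 1.18 and 1.2. The levels stepped down from Control to Day 2 to Day 4 without overlap, and the Day 4:Day 2 fall was 2.25-fold (log2 fold change -1.17, SE 0.06, adjusted p = 0.00022). Its relative ckmb fell by 0.97 (SE 0.08) and the myosin light chain gene mylpfa by 1.1 (SE 0.08). All 5 significantly regulated probes of the troponin gene tnnt3b fell, by 0.68 to 0.81. The myosin light chain gene myl1 fell by 0.92 (SE 0.09) with 1 of 3 Day 4 arrays well above background, and turned to 0.12 under normexp correction.

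The rises on that list were of smyd1a and aldoab. The gene smyd1a, a methyltransferase needed for myosin assembly, read -2.08, -1.84 and -1.70 on Day 2 and -1.18, -0.79 and -0.79 on Day 4, a rise of 0.92 (SE 0.06, adjusted p = 0.00057) that brought it to the Control arrays (-1.08, -0.97 and -0.93). The aldolase gene aldoab, an enzyme of glycolysis, rose by 0.62 (SE 0.11) and missed the test without Day 2 replicate 3 (adjusted p = 0.0714). Among slow and cardiac muscle genes 3 of 16 tested probes fell and none rose (median -0.08), beside 4.37% lower among all tested probes. The cardiac actin gene actc1b fell by 1.09 (SE 0.06) with 1 probe, from -0.56, -0.55 and -0.60 to -1.78, -1.57 and -1.62, but did not pass the test with the other (0.09, SE 0.08). Cardiac actin gene actc1a fell by 0.74 (SE 0.13), missed the test without Day 2 replicate 3 (adjusted p = 0.0600) and turned to 0.061 under normexp correction. The tropomyosin gene tpm3 also gave unlike probes, with a fall of 0.74 (SE 0.11) at one and -0.08 (SE 0.04) at the other. Of 5 tested fast muscle marker probes 3 were lower and none higher. The 3 were probes of ckma, mylpfa and actc1b already counted above, that of actc1b among the slow and cardiac muscle genes. All 11 fast muscle marker probes on the array summed to 16.5 to 16.9 in Control, 15.1 to 16.3 on Day 2 and 12.4 to 14.7 on Day 4. The summed signal of 2 slow muscle probes, neither of them reaching the fold threshold, was 1.50 to 1.61 and 1.88 to 1.94 on the 2 days. In Control it was 7.3 to 7.49. The fast myosin gene myhz2 was well above background on no array, and the part of dissected muscle in these values was not tested.

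**Figure D3:**
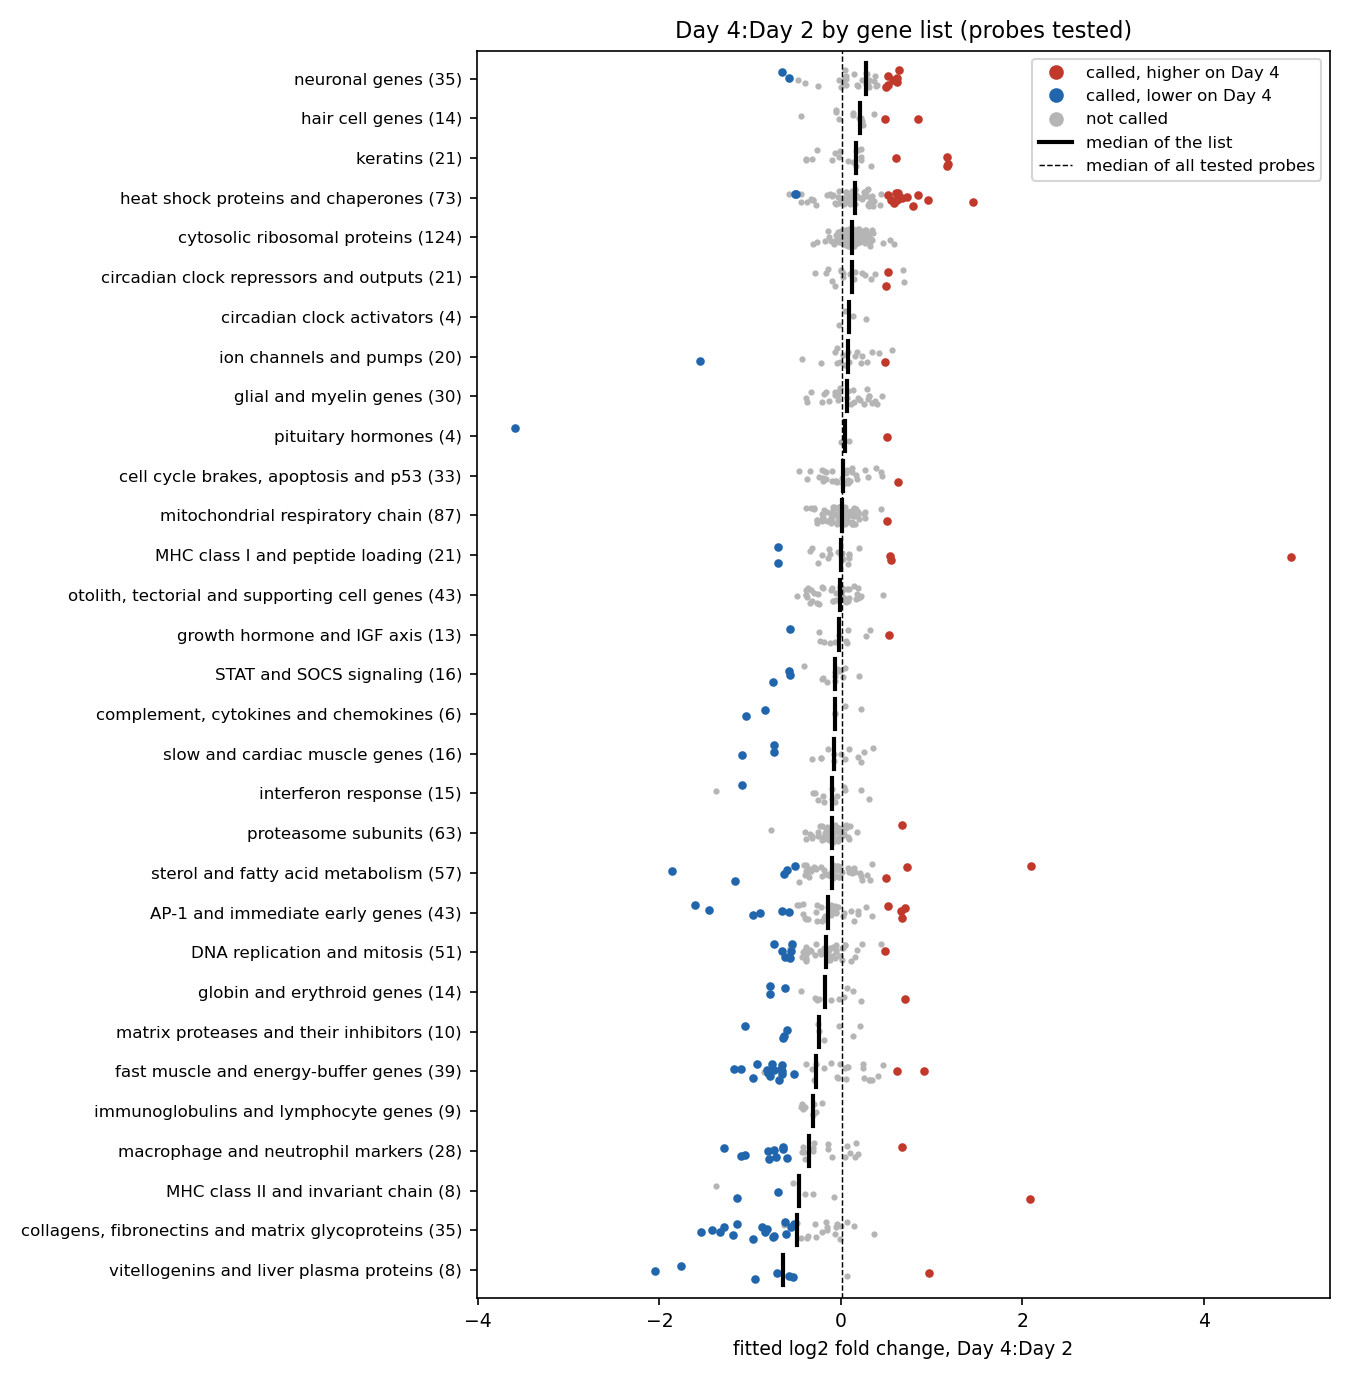
Each row is 1 of 31 gene lists, with its number of tested probes in parentheses, and each point is the fitted log2 fold change of 1 probe. Thick marks are list medians and the dashed line is the median of all tested probes (0.01). Collagens and other matrix genes (median -0.48) and macrophage markers (-0.36) lie to the left, and neuronal genes (0.28) to the right.

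Heat shock proteins and chaperones, which refold damaged proteins, had 12 rises and 2 falls in 73 tested probes, with a median of 0.15, beside 3.42% higher among all tested probes. The rises were 8 without Day 2 replicate 3, and the median was -0.0057 under normexp correction. The stress-induced chaperone gene hsp70.3 (chromosome 3, 16140984 to 16141043) read 3.35, 3.44 and 3.51 on Day 2 and 4.55, 4.28 and 4.33 on Day 4, while Control arrays read 3.47, 3.49 and 3.47. Control and Day 2 overlapped and Day 4 stood above both, a 1.95-fold rise (log2 fold change 0.96, SE 0.09, adjusted p = 0.0012). A probe that the files describe as HSP70 and place near it on chromosome 3 (AB062116, chosen after its values were seen) rose by 1.73 (SE 0.06, adjusted p = 0.00016). The HSP70 genes are close copies of each other, and a 60-mer may bind more than 1 of them.

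The cytosolic HSP90 genes gave unlike probes. The probe of hsp90aa1.1 at chromosome 20, 58633646 to 58633675, read 1.67, 1.64 and 1.70 on Day 2 and 2.72, 2.42 and 2.37 on Day 4 (log2 fold change 0.85, SE 0.09, adjusted p = 0.0023), and another did not pass the test (-0.07, SE 0.11). Of the probes matched to hsp90ab1, 2 rose, by 1.46 (SE 0.14) and 0.79 (SE 0.05), but the files place both on chromosome 20 beside hsp90aa1.1. The 6 probes of hsp90ab1 on chromosome 7 ranged from -0.02 to 0.43 and none was significantly regulated, so the gene behind the 2 rising probes is uncertain.

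The other rises included hsf1, the transcription factor that switches heat shock genes on (0.62, SE 0.11), the co-chaperones dnajb1a (0.72, SE 0.11) and bag3 (0.68, SE 0.04), and the myosin chaperone unc45b (0.63, SE 0.08). The small heat shock genes hspb1 and cryabb rose by 0.52 and 0.55, hspa4a by 0.58, and dnajc5aa, a chaperone of synaptic vesicles, by 0.61. The 2 falls were the protein disulfide isomerase genes pdia4 (-0.51, SE 0.05) and pdia6 (-0.49, SE 0.05), which fold proteins in the endoplasmic reticulum rather than in the cytosol.

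Of 21 tested probes for keratins, the intermediate filaments of epithelia, 4 rose and none fell, beside 3.42% higher among all tested probes. Their median was 0.16, and -0.12 under normexp correction, with 13 fitted values above 0 in the main fit. The gene krt91 read 2.89, 2.84 and 2.72 on Day 2 and 3.84, 4.09 and 4.04 on Day 4 with the probe at chromosome 19, 583430 to 583489. Control arrays read 2.79, 2.79 and 2.71, so only the Day 4 arrays stood apart, and the rise was 2.27-fold (log2 fold change 1.18, SE 0.09, adjusted p = 0.00071). The neighbouring type I cytokeratin gene cki rose by 1.17 (SE 0.07, adjusted p = 0.00044). Keratin genes are similar in sequence, and a probe of one may bind another. On chromosome 25 krt97 rose with 1 probe (0.61, SE 0.11), though not without Day 2 replicate 3 (adjusted p = 0.0652), and did not pass with the other (0.19, SE 0.14). Of 8 tested epidermal marker probes none passed the test. The summed signal of all 11 on the array was 106 to 116 on Day 2 and 118 to 124 on Day 4.

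Neuronal genes had 7 rises and 2 falls in 35 tested probes, beside 3.42% higher and 4.37% lower among all tested probes. Their median was 0.28, and 0.09 under normexp correction. The RNA-binding protein gene elavl4 of young neurons read 1.01, 1.00 and 1.1 on Day 2 and 1.46, 1.79 and 1.84 on Day 4, a rise of 0.62 (SE 0.08, adjusted p = 0.0036). A second elavl4 probe rose by 0.50 (SE 0.10) but lost its call without any 1 of 6 arrays. Control and Day 2 replicate 2, which give the same fit, are both among them. Another probe did not pass the test (0.28, SE 0.12, adjusted p = 0.122). The synuclein gene sncb rose by 0.64 (SE 0.11) and the synaptic vesicle gene vamp2 by 0.52 with both probes. The rise of sncb was larger on slide 3 than on slide 1 (0.81 against 0.36), and leaving out 1 array in turn left between 1 and 8 rises in the list, the 1 without Day 2 replicate 3 and 3 without Day 4 replicate 2 or 3. For elavl3 1 probe rose (0.62, SE 0.10) and another read lower on Day 4 without reaching the threshold (-0.47, SE 0.12). The tubulin gene tubb5 fell with 2 probes (-0.64, SE 0.05, and -0.57, SE 0.09) and did not pass with the remaining one (0.14, SE 0.05). Of 6 tested neuronal marker probes 1 was higher and none lower. All 7 on the array summed to 13.6 to 15 in Control, 12.1 to 12.6 on Day 2 and 12.6 to 13.8 on Day 4. The part of nerve tissue in the rises was not tested.

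Hair cell genes gave 2 rises in 14 tested probes, beside 3.42% higher among all tested probes. Their median was 0.21, and 0.04 under normexp correction. The splicing regulator gene rbm24a, active in hair cells and muscle, read -1.46, -1.50 and -1.52 on Day 2 and -1.16, -0.28 and -0.33 on Day 4. Replicates 2 and 3 of Day 4 were thus well above replicate 1, and the rise of 0.85 (SE 0.19, adjusted p = 0.022) was 0.29 within slide 1 and 1.21 within slide 3. The calmodulin gene calm1a, a calcium sensor, rose by 0.49 (SE 0.10), which was 0.21 within slide 1 and 0.66 within slide 3. Both calls were lost without Control or Day 2 replicate 2 (the same fit), Day 2 replicate 3 or Day 4 replicate 3. The values were then 0.63 to 0.84 for rbm24a and 0.40 to 0.48 for calm1a. The call of calm1a was also lost without Control replicate 3 (0.47) or Day 4 replicate 2 (0.45). Genes of the otolith, the tectorial membranes and supporting cells had no call by limma in 43 tested probes (median -0.01), of which 21 had an unadjusted p of at most 0.05. Closest to the fold threshold were tectb, which encodes the tectorial membrane protein beta-tectorin (-0.48, SE 0.08, adjusted p = 0.0099), and jag1b, a ligand of Notch (0.47, SE 0.07, adjusted p = 0.0067). Leaving out 1 array in turn left the list without a call except without Day 2 replicate 1 (1 rise and 1 fall) or Day 4 replicate 1 (1 rise and 2 falls).

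Of 57 tested probes for sterol and fatty acid metabolism 5 fell and 3 rose, with a median of -0.10, beside 4.37% lower and 3.42% higher among all tested probes. The desaturase gene scd, which makes monounsaturated fatty acids, read -0.44, -0.62 and -0.74 on Day 2 and -2.37, -2.35 and -2.77 on Day 4, with 1 of 3 Day 4 arrays well above background. It fell 3.63-fold (log2 fold change -1.86, SE 0.12, adjusted p = 0.00053). The gene dgat1a, which catalyses the last step of triglyceride synthesis, read -0.41, -0.49 and -0.45 on Day 2 and -1.71, -1.49 and -1.51 on Day 4 (log2 fold change -1.16, SE 0.06, adjusted p = 0.0003). The fatty acid carrier gene fabp4a of fat cells and macrophages fell by 0.59 (SE 0.05) and the sterol synthesis gene mvda by 0.51 (SE 0.08). One probe of the desaturase gene fads2 fell by 0.63 (SE 0.08) while the other 4 ranged from -0.27 to -0.02 and were not significantly regulated.

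The rises on this list were of cpt1b, elovl4a and cyp8b1.3. The mitochondrial carnitine transferase gene cpt1b rose by 0.73 (SE 0.05, adjusted p = 0.00063) and elovl4a, which lengthens fatty acids, by 0.50 (SE 0.07), or 0.44 to 0.48 without Control replicate 3, Day 2 replicate 1 or Day 4 replicate 2, under the fold threshold. The gene cyp8b1.3, of the bile acid hydroxylase family, read -3.64, -3.31 and -3.25 on Day 2, where 1 of 3 arrays was well above background, and -1.26, -1.48 and -1.2 on Day 4. Control arrays read -1.99, -2.05 and -2.08, between the days, and the rise was 4.29-fold (log2 fold change 2.1, SE 0.13, adjusted p = 0.00046).

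Vitellogenins, the yolk proteins that the liver of females releases into the blood, were lower on Day 4. The array carried 44 probes described as vitellogenin, of which 9 were tested, 7 fell and 0 rose, beside 4.37% lower among all tested probes. Each of the 7 passed the filter through the Day 2 arrays alone, where it read higher. The count of falls against rises is therefore partly fixed by the filter. Of those 7, 5 were well above background on no Day 4 array and 2 on 1 of them, and the 5 were at least 1.07-fold to 1.37-fold lower when set against the background limit of the Day 4 arrays. For vg1 the probe at chromosome 22, 24828798 to 24828857, read -2.54, -2.59 and -2.75 on Day 2 and -4.65, -4.31 and -4.19 on Day 4, and Control arrays read -1.03, -1.01 and -0.98. Day 4 was the lowest group and Control the highest. Set against the background limit, however, the Day 4 level of vg1 can only be called at least 1.37-fold lower. This bound was not itself tested, and the adjusted p of limma (0.00062) is that of the array values.

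Other liver plasma proteins were divided. The iron carrier gene tfa, transferrin, read -0.04, -0.04 and -0.04 on Day 2 and 0.90, 0.94 and 0.94 on Day 4, a rise of 0.97 (SE 0.04, adjusted p = 0.00016). Control arrays read -0.57, -0.55 and -0.57, so tfa stepped up from Control to Day 2 to Day 4. The fetuin gene ahsg1 fell with all 3 tested probes, by 0.95, 0.57 and 0.53, of which the first was well above background on 1 of 3 Day 4 arrays and turned to 0.15 under normexp correction. Of 2 tested probes of rbp4, which carries retinol, 1 dim probe fell by 0.70 (SE 0.19), turned to 0.29 under normexp correction and lost its call without any one of the Control or Day 2 arrays, and the other read 0.07 (SE 0.09). Of 3 tested liver marker probes 2, of vg1, were lower and 1, of tfa, higher, beside 4.37% and 3.42% of all tested probes. All 10 on the array summed to 2.17 to 2.23 in Control, 1.51 to 1.58 on Day 2 and 2.18 to 2.41 on Day 4. The tfa probe given above was the largest part of this sum on both days. The liver genes fabp10a and apoa1a were well above background on no array, and the part of blood plasma or other tissue was not tested.

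Red blood cell genes had 3 falls and 1 rise in 14 tested probes (median -0.17), beside 4.37% and 3.42% of all tested probes. The band 3 anion exchanger gene slc4a1a read 1.47, 1.46 and 1.4 on Day 2 and 0.58, 0.73 and 0.67 on Day 4, a fall of 0.78 (SE 0.06, adjusted p = 0.0008). Adult globin genes hbaa1 and hbba2 fell by 0.62 (SE 0.05) and 0.78 (SE 0.12), and the membrane skeleton gene ank1a rose by 0.71 (SE 0.10). The 3 tested red cell marker probes summed to 169 to 183 on Day 2 and 153 to 203 on Day 4, 2 of them lower and none higher. Most of this sum came from hbba1 (log2 7.32 to 7.44 on Day 2, hbaa1 2.61 to 2.70), which did not pass the test (0.06). The part of blood in the pools was not tested.

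Of 51 tested probes for genes of DNA replication and mitosis 7 fell and 1 rose, beside 4.37% and 3.42% of all tested probes. The median was -0.17, and 0.08 under normexp correction. The helicase gene mcm5, which opens DNA for replication, read -1.47, -1.38 and -1.46 on Day 2, -1.97, -2.06 and -2.05 on Day 4 and -2.49, -2.47 and -2.50 in Control. Day 4 stood between Day 2 and Control without overlap, and the fall was 1.48-fold (log2 fold change -0.57, SE 0.04, adjusted p = 0.0008). Its second probe fell by 0.56 (SE 0.09). The thymidylate synthase gene tyms fell by 0.65 (SE 0.14), the replication fork gene cdc45 by 0.62 (SE 0.13), the spindle motor gene kif11 by 0.73 (SE 0.16), the mitotic kinase gene cdk1 by 0.55 (SE 0.13) and the primase gene prim2 by 0.54 (SE 0.15). Of these 7 falling probes only that of prim2 gave signal well above background on each Day 4 array. The others passed the filter through the Day 2 arrays alone, where they read higher. The count of falls against rises in this list is therefore partly fixed by the filter.

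Under normexp correction 5 of the 7 falls turned to small positive values, 0.0082 and 0.084 for mcm5, 0.26 for cdc45, 0.14 for kif11 and 0.087 for tyms. Leaving out 1 array in turn left between 1 and 9 falls in the list, the 1 without Day 2 replicate 3 and 4 without Control or Day 2 replicate 2. Another helicase gene, mcm7, rose by 0.49 (SE 0.09), and by 0.43 to 0.48 where Control replicate 3, Day 2 replicate 1 or 3, or Day 4 replicate 2 or 3 was left out, under the fold threshold. Of 33 tested probes for cell cycle brakes, apoptosis and p53 1 rose, beside 3.42% of all tested probes, and none fell (median 0.02). It was a probe of cdkn1bb, a p27 inhibitor of cyclin kinases (0.63, SE 0.12), which missed the test without Day 2 replicate 3 (adjusted p = 0.0570) and whose other probes gave 0.39 and 0.45, under the fold threshold.

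Several lists showed few calls or none, beside 3.42% higher and 4.37% lower among all tested probes. Of 124 probes for cytosolic ribosomal proteins 0 were significantly regulated by limma (33 had an unadjusted p of at most 0.05) and 3 rose with scaling at the 50th percentile. Their median was 0.13, against -0.00 after quantile normalization and -0.16 under normexp correction. Glial and myelin genes had no call in 30 probes (median 0.07, 18 with an unadjusted p of at most 0.05), with plp1a (0.46, SE 0.05) and gfap (0.32 to 0.40 over 3 probes) under the fold threshold, and immunoglobulins and lymphocyte genes had none in 9, although the unadjusted p was at most 0.05 for all 9 (median -0.31). The lymphocyte marker probe of the immunoglobulin gene ighv2-2 was not tested, being well above background on 1 Day 2 array and 2 Day 4 arrays. It read -5.06, -3.93 and -4.60 on Day 2 and -1.90, -2.60 and -2.47 on Day 4, higher without overlap. The respiratory chain had 1 rise in 87 probes, ndufb2, which did not pass with its other tested probe (-0.02, SE 0.09). Proteasome genes had 1 rise in 63, the assembly factor psmg1, whose days overlapped. Circadian clock repressors and outputs had 2 rises and no fall in 21 probes (median 0.12), cry3b (0.51, SE 0.06) and csnk1e (0.50, SE 0.06), both within reach of the fold threshold (0.45 without Day 4 replicate 1, and 0.43 without Day 2 replicate 3), and the clock activators had no call in 4, 2 of them with an unadjusted p of at most 0.05. Ion channels and pumps had 1 rise in 20 probes, the sodium pump chain atp1b1b (0.49, SE 0.09), and 1 fall, the potassium channel gene kcnh6a (-1.55, SE 0.18), which was well above background on 1 Day 4 array.

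Some of the largest changes lay outside these lists. The detoxifying enzyme gene cyp1a, a target of the aryl hydrocarbon receptor, read -0.23, -0.28 and -0.26 on Day 2 and -1.52, -1.67 and -1.73 on Day 4. The Control arrays (-1.58, -1.54 and -1.71) overlapped those of Day 4, and the fall from Day 2 was 2.56-fold (log2 fold change -1.35, SE 0.06, adjusted p = 0.00017). The alcohol and formaldehyde dehydrogenase gene adh8a rose with both probes, by 1.01 (SE 0.05, adjusted p = 0.0002) and 0.91 (SE 0.07), and its Day 4 arrays (0.92, 0.93 and 1.02) stood above both other groups. The gene znfl2a rose by 1.13 (SE 0.06, adjusted p = 0.0003) and kdm7aa, a histone demethylase, by 1.07 (SE 0.10, adjusted p = 0.0015). The translation factor gene eif4a2 rose by 0.98 (SE 0.05) with 1 probe and not with another (0.10, SE 0.10).

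Other changes rested on dim probes. The purine nucleoside phosphorylase gene pnp5b (chosen after its values were seen) read -4.83, -4.42 and -5.04 on Day 2, where 1 of 3 arrays was well above background, and -2.18, -1.89 and -1.83 on Day 4, a rise of 2.90 (SE 0.13, adjusted p = 0.00019). Its second probe rose by 0.84. The polyadenylation factor gene cstf3 read -3.25, -3.08 and -3.19 on Day 2 and was well above background on no Day 4 array (-3.76, -4.27 and -4.38). Its Day 2 level lay below the background limit of the Day 4 arrays, so no fold is given, and its fitted value turned to 0.21 under normexp correction.

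For another set of genes the rise came mainly from Day 4 replicates 2 and 3. The glycine cleavage gene gldc read 2.76, 2.70 and 2.75 on Day 2 and 2.95, 4.66 and 4.35 on Day 4. Day 4 replicate 1 was close to Day 2, and the difference was 0.19 within slide 1 and 1.75 within slide 3 (log2 fold change 1.12, SE 0.34, adjusted p = 0.049). Leaving out any array but Day 4 replicate 1 ended the call (adjusted p = 0.0528 to 0.271), and a second gldc probe gave 0.45 (SE 0.05), under the fold threshold. The muscle transcription factor gene mef2d rose by 1.08 (SE 0.23), which was 0.58 within slide 1 and 1.47 within slide 3. The gene ankrd12 rose by 0.98 (SE 0.23), which was 0.37 and 1.38 within these slides, and the phosphatase gene pptc7a by 1.36 (SE 0.18), which was 0.89 and 1.59. The call for mef2d was lost without Day 2 replicate 3 (adjusted p = 0.119) or Day 4 replicate 3 (adjusted p = 0.0512). That for ankrd12 was lost without any of 5 single arrays, of which Control and Day 2 replicate 2 give the same fit (adjusted p = 0.0511 to 0.149). The call for pptc7a held without each array in turn.

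Over all 767 probes the difference had the same sign within slide 1, where each day had 1 array, and within slide 3, where Day 2 had 1 array and Day 4 had 2. The same sign on both slides was found for 64.3% of all tested probes. A difference of at least 1.4-fold within both slides was found for 423 of the 767 probes (55.1%) and for 4.46% of all tested. The 767 probes were chosen by a fit to these same arrays. This partly fixes both the shared sign and the share past 1.4-fold, so neither is a separate test of the changes. It was reached on slide 3 alone for 282 probes, 158 higher and 124 lower, and on slide 1 alone for 61. Slide 3 held 2 of the 3 Day 4 arrays and so weighed more in the fit that chose these probes, which partly fixes the larger count on that slide. The largest rise, hla-ze, went the other way (5.29 within slide 1 and 4.40 within slide 3). The part of the higher background of slide 3 was not tested.

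**Figure D4:**
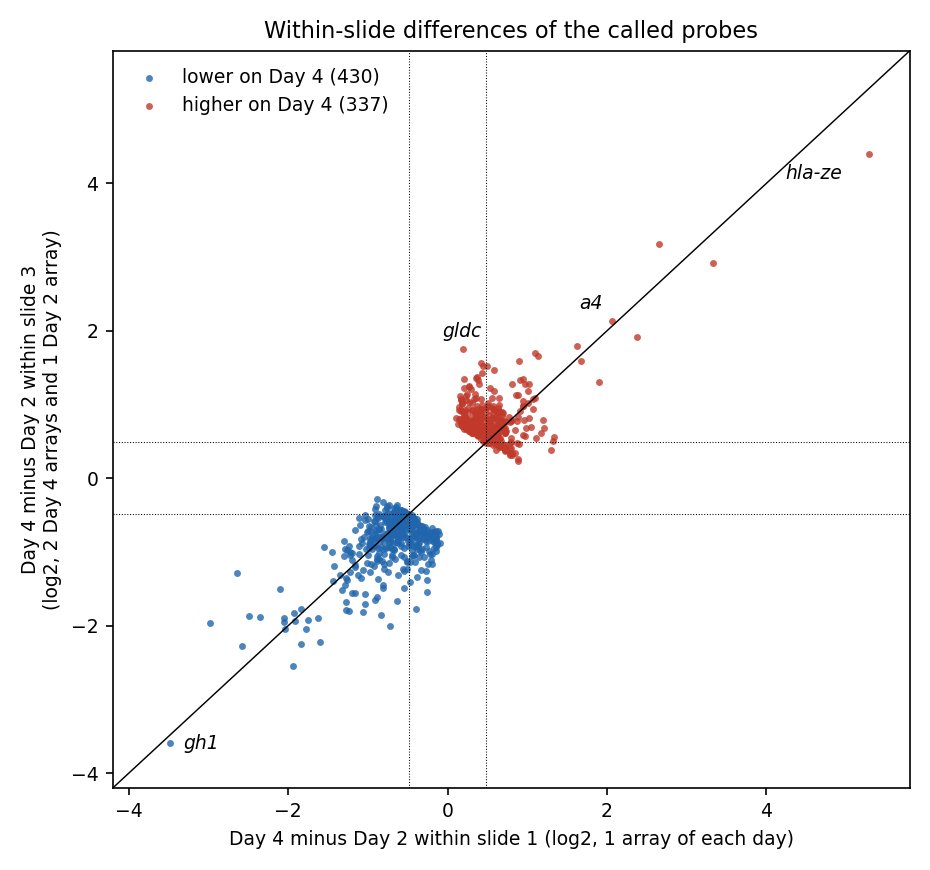
Each point is 1 of the 767 significantly regulated probes, with the log2 difference Day 4 minus Day 2 within slide 1 on the horizontal axis and within slide 3 on the vertical axis. Dotted lines mark a 1.4-fold change and the diagonal marks equal values. All points lie in the quadrants of equal sign, which the choice of probes from these same arrays partly fixes. The gene gldc shows 0.19 on slide 1 and 1.75 on slide 3.

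The Control arrays give the level from which both days departed. Comparisons of each day with Control share the Day 2 or the Day 4 arrays with the comparison above, so their values are only set side by side. For gh1 the fitted log2 difference from Control, where 1 of 3 arrays was well above background, was 6.05 on Day 2 and 2.46 on Day 4. For fosab the log2 fold change was 1.63 and 0.67, for socs3b 0.99 and 0.24, and for mfap4.1 2.1 and 0.82, so that these genes were above Control on both days and less so on Day 4. For the brighter fn1b probe it was 1.29 on Day 2 and 0.01 on Day 4, and for cyp1a 1.36 and 0.00, which placed Day 4 at the Control level. The dim fn1b probe gave 1.08 and -0.47.

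A second set departed from Control on Day 4 more than on Day 2. Against Control krt91 gave 0.06 on Day 2 and 1.24 on Day 4, hsp70.3 gave -0.04 and 0.92, adh8a gave 0.10 and 1.1, and nr4a1 gave 0.08 and 0.76. Downwards the same order was seen for ckma (-0.42 and -1.59) and matn1 (-0.28 and -1.70). Another set lay on either side of Control, with a4 at -1.29 on Day 2 and 0.80 on Day 4 and col1a1a at 0.66 and -0.68. The gene hla-ze, with no Day 2 array above background, gave -1.13 on Day 4.

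**Figure D5:**
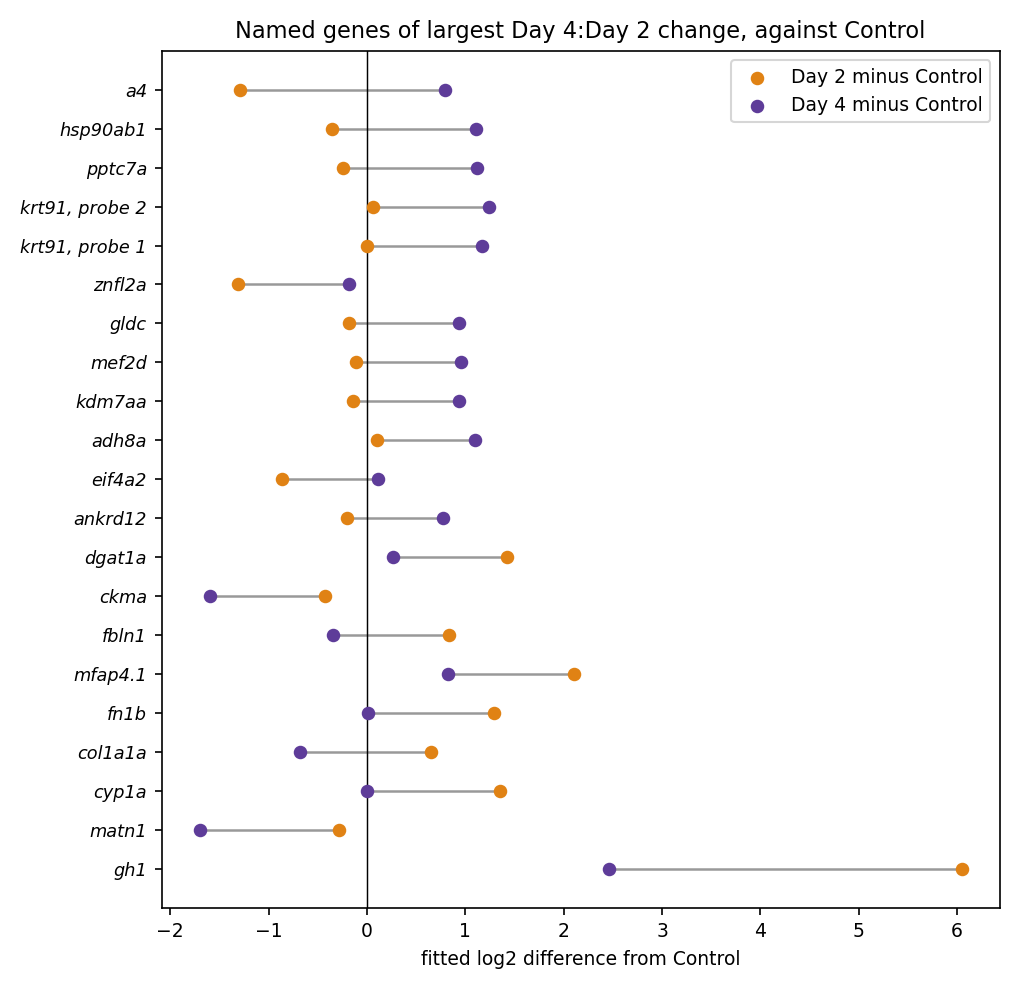
Each row is a probe among the largest Day 4:Day 2 changes, with its fitted log2 difference from Control on Day 2 (orange) and on Day 4 (purple), both computed with the same 3 Control arrays. For gh1, with 1 of 3 Control arrays well above background, the points lie at 6.05 and 2.46, for cyp1a at 1.36 and 0.00, and for matn1 at -0.28 and -1.70.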

How the data were processed

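Single-colour arrays of 3 groups were analysed (1 RNA pool and 3 arrays each), 9 in all. The authors deposited spot intensity values from Agilent Feature Extraction 9.5.1 (processing notes of the submitters), with background and spatial trends removed within each array and no scaling between arrays. They also deposited, for each pair of groups, tables with their own fold changes, P-values and group means, which were not used. Precision is limited by the number of arrays.

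Control spots and outlier spots were left out. Processed signals were log2 transformed and scaled so that the 75th percentile of every array was 0, and both spots of a probe were averaged. Probes well above background on all 3 arrays of at least 1 day were tested with limma 3.58.1 (R 4.3.3) in 1 fit of the 9 arrays with group and slide as terms, and p-values were adjusted by Benjamini-Hochberg. Slides were read from the array identifiers in the files, which put Day 4 replicates 2 and 3 on 1 slide, whereas the study's methods describe 1 array of each group on every slide. The slide term and the within-slide values follow the files. A level not measured on a day was bounded by the lowest signal well above background on each array. The fit was tested on simulated data.

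Names were those of the array, updated through RefSeq for 10329 of 21495 probes. Genes named were the 12 largest rises and falls, the 6 largest bounds, up to 4 members of each list in either direction, genes that the study discusses for this comparison, and further probes of these where they differed. A few genes that this rule takes are not reported here. The comparison and the lists were chosen with earlier results of these data known. Alternatives changed the scaling, background correction, filter, slide term and arrays, and the test to the methods' t-test. Tables and figures were made in Python 3.11.15 with pandas 2.3.3 and matplotlib 3.10.9. No probe sequence is printed, and coordinates are those of the files (danRer2).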

Additional observations from a re-analysis of the deposited data

How the results depend on the processing

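The Day 4:Day 2 counts (767 probes, 337 higher and 430 lower) stayed within 1.5 times under 50th percentile, quantile and other 75th percentile scaling, without the slide term, with the slide as a random block, and with a variance trend. They moved further under the following settings, given as called, higher and lower. Without a filter on dim probes they were 371, 149 and 222, with 50th percentile scaling in addition 14, 8 and 6, and without the slide term as well 184, 74 and 110. A fit of the 6 arrays of the 2 days with the slide term gave 377, 144 and 233, and a fold of at least 2 gave 104, 30 and 74. Requiring signal on all 6 arrays left 238 lower probes beside 306 higher. Normexp correction gave 0 in each direction by limma (757 with an unadjusted p of at most 0.05), and the median standard error rose from 0.0692 to 0.200. The methods' t-test in its paired form gave 223 higher unadjusted, and after Benjamini-Hochberg 5, 0 and 5. In its unpaired form it gave 510 and 210 higher after Benjamini-Hochberg. The settings that joined 50th percentile scaling with no filter were chosen after seeing the data.

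Leaving out 1 array gave 484 (Day 2 replicate 3) to 1277 (Day 4 replicate 1) called probes, 196 to 533 higher and 288 to 744 lower. Of 114 significantly regulated named probes between 84 and 112 stayed past both thresholds. With the replicate number as a block in place of the slide the counts were 836, 346 and 490, and 111 of the 114 probes stayed. Deviations of same-numbered Day 2 and Day 4 arrays correlated at -0.16 to 0.10, so the numbers do not pair the arrays of these days. Those of same-numbered Control and Day 2 arrays, which also shared a slide, correlated at 0.23 to 0.44.

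Under normexp correction 10 named falls turned to small positive values, actc1a 0.061, ahsg1 0.15, cdc45 0.26, cstf3 0.21, kif11 0.14, mcm5 0.0082 and 0.084, myl1 0.12, rbp4 0.29 and tyms 0.087. The cause was not tested. All were dim probes, not well above background on at least 1 Day 4 array.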
